A study of Mus musculus with 12 samples.

Results

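Among the m6A peaks that differed between senescent and young mouse embryonic fibroblasts, 6 genes of the T-box, Hox, Hedgehog and Wnt families, which act in the patterning of the embryo, were examined: the T-box genes Tbx3 and Tbx4, the homeobox gene Hoxa4, the Hedgehog receptor gene Ptch1, and the Wnt pathway genes Apc2 and Wnt10b. They were selected by gene name from 2 deposited tables, and those tables hold only peaks that the authors' comparison had already called different. Each gene therefore had a listed peak by construction, and neither the listing nor its direction is a test result here. The 6 genes accounted for 15 of 1043 listed peaks, or 6 of 657 sites after overlapping peaks of the same gene and direction were merged, in 6 of 633 genes.

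The libraries came from MEFs (mouse embryonic fibroblasts), which were taken from C57BL/6 embryos and stop dividing after serial passage. Senescent cells at passage 9 (P9) were compared with young cells at passage 3 (P3), all cultured in the same serum-containing medium and carrying no engineered allele. For P9 and for P3 alike there were 3 MeRIP and 3 input libraries, 12 in all. The labels number the replicates but do not say whether they were separate cultures. In MeRIP-seq an antibody against m6A pulls down fragments of RNA, and a stretch of a transcript where these fragments are enriched is called a peak. The deposited tables name their groups Treatment and Control, which were read as P9 and P3 because the number of peaks in each table equals the number that the paper gives for that direction. Values per library were not used here, so depth is unknown, no spread between replicates can be given, and the fibroblast label could not be checked against the levels of marker genes. The deposited fold changes and p-values are the authors' own comparison and are not given, so the account below covers the place and extent of each peak and not the size of its change.

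N6-methyladenosine is written on messenger RNA by a methyltransferase complex around METTL3, most densely near stop codons and in 3' UTRs, and proteins that read it alter the stability or translation of the transcript. T-box and Hox genes encode DNA-binding proteins that fix the identity of regions in the embryo, while Hedgehog and Wnt are secreted signals that pattern the limb bud and the neural tube. Fibroblasts from embryos keep part of this positional programme in culture.

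Of the 6 genes, Tbx3, Tbx4, Hoxa4, Ptch1 and Apc2 were listed with a peak higher in P9 MEFs, and Wnt10b with a peak lower in P9 MEFs. Each gene had 1 site and none was listed in both directions. The 5 genes listed as higher held 8 listed peaks on 8 transcripts, and Wnt10b alone held 7. A peak is listed once for each transcript that carries it, so these numbers count transcripts of the same site and not separate methylated places. In Wnt10b 7 listed peaks made up 3.45% of the 203 listed peaks of the lower table, while its single site made up 0.758% of the 132 lower sites.

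**Figure D1:**
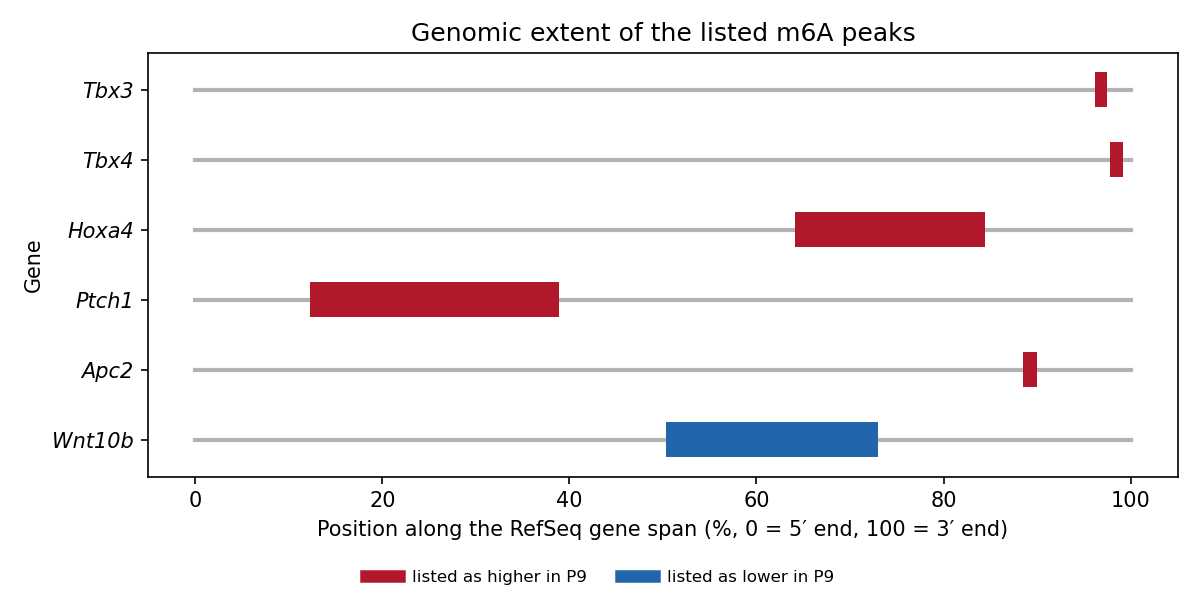
Genomic extent of each listed peak (bars, from its outermost edges over all listed transcripts) along the RefSeq span of its gene (grey lines), in percent from the 5' end. The bars of Tbx3 and Tbx4 lie beyond 96.2% of the gene, and the bar of Ptch1 runs between 12.3% and 38.9% because it includes the intervals between its exon blocks.

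The T-box genes encode transcription factors of limb and heart development. Tbx3, a repressor required for the posterior limb and the mammary gland, had its site in the 3' UTR, on the plus strand of chromosome 5 (mm10, chr5:119684185-119684364). On transcript ENSMUST00000018748.8, of 4856 nt, the peak covered 180 nt, which was 3.71% of the transcript. On transcript ENSMUST00000121021.7, of 4777 nt, it ran from 119684187 to 119684336 and covered 150 nt, or 3.14%. The shorter interval lay wholly inside the longer one, so both transcripts shared 150 nt. On these transcripts 360 nt and 388 nt lay between the peak and the 3' limit of Tbx3, which RefSeq places from 119670534 to 119684724 in the GRCm38.p6 assembly. The nearest edge of the long noncoding RNA gene Tbx3os2 lies 724 nt beyond the peak, and Tbx3os2 had no listed peak. Listed peaks are labelled by coding sequence or UTR, so a noncoding RNA gene may not have been eligible for listing. The absence of Tbx3os2 therefore says nothing about it.

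Tbx4, which is expressed in the hindlimb bud and the lung mesenchyme, had its site in the 3' UTR as well, on the plus strand of chromosome 11 (chr11:85915438-85915859). It was listed for 3 transcripts. The peak covered 419 nt on ENSMUST00000000096.11, 419 nt on ENSMUST00000108045.2 and 417 nt on ENSMUST00000108047.7, and 416 nt were common to all of them. The starts differed by 3 nt and the ends by 3 nt among the transcripts, whose lengths ran from 2959 to 3153 nt. The peak therefore occupied 13.2% to 14.2% of the transcript, a larger share than in Tbx3. It stopped 238 to 241 nt short of the 3' limit of Tbx4 (85886367 to 85916097), at 99.2% of the gene's span. Both T-box peaks thus lay at 96.2% of their gene's span and beyond.

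Hoxa4 belongs to the cluster of homeobox genes on chromosome 6 that sets the identity of segments along the head-to-tail axis. Its peak was listed for 1 transcript, ENSMUST00000101395.2, on the minus strand (chr6:52189996-52190408), and covered coding sequence and 3' UTR together, across the stop codon. It covered 413 nt of a transcript of 1594 nt, or 25.9%, the largest share among the 15 listed peaks of these genes. Of all 1043 listed peaks, 90.8% covered a smaller share of their transcript. Its 3' edge lay 314 nt from the 3' limit of Hoxa4 (RefSeq span 52189682 to 52191703). The spans of 2 other RefSeq genes cover this place, namely Hoxa3 (52169059 to 52213067) and the long noncoding RNA gene LOC115490409 (52175179 to 52193060). Neither had a listed peak. For the noncoding LOC115490409 this says nothing, as for Tbx3os2. Hoxa3 may have had no m6A peak, an unchanged one or too few reads, so its absence is not informative either. The libraries were made with a stranded kit, but the sources used here do not say whether strand entered the peak calling. Strand would also not separate genes that overlap on the same strand. Reads of overlapping genes at this place therefore cannot be told apart.

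Ptch1 encodes the receptor that binds Hedgehog proteins and, without them, holds the pathway off by inhibiting Smoothened. Along the gene's span its peak was the furthest 5' among these 6 genes, with its outer edges at 12.3% and 38.9%. The midpoint of these edges, at 25.6%, fell in an interval between exon blocks, where the peak holds no bases. The peak was listed for 1 transcript, ENSMUST00000021921.10, of 7725 nt, on the minus strand of chromosome 13 (chr13:63548123-63565436), and was labelled as coding sequence. The genomic interval was 17314 nt long but consisted of 3 exon blocks with 331 nt in all, or 4.28% of the transcript. From 5' to 3' the blocks were 75 nt (63565362 to 63565436), 193 nt (63563623 to 63563815) and 63 nt (63548123 to 63548185). They were separated by intervals of 1546 nt and 15437 nt. The first block began 299 nt downstream of a transcription start site in RefSeq at 63565735, while the full RefSeq span of the gene reaches further upstream, to 63573460. The distance to the 3' end of the gene was 39795 nt. Of all 1043 listed peaks, 48 spanned at least as long a genomic interval, 23 of them in the higher and 25 in the lower table.

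Apc2 encodes a relative of the tumour suppressor APC that takes part in the breakdown of beta-catenin and is expressed mainly in neurons. Its peak lay in coding sequence on the plus strand of chromosome 10 (chr10:80315685-80316015), in a single block of 331 nt, and was listed for transcript ENSMUST00000105359.7. This transcript, of 9173 nt, was the longest of the 15, and the peak covered 3.61% of it. The peak stopped 2242 nt short of the 3' limit of Apc2, at 89.9% of its span (80295956 to 80318257). It thus lay towards the 3' end of the gene without touching the 3' UTR. The lengths of the Apc2 and Ptch1 peaks were equal, at 331 nt, although the first lay in 1 block and the second in 3. Of all 1043 listed lengths, 78.1% were within 1 nt of a multiple of 30 nt, as were 8 of the 15 here, so that many listed peaks share a length.

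Wnt10b encodes a secreted Wnt ligand that holds mesenchymal precursors away from the fat cell fate and promotes bone formation. Its peak, listed as lower in P9 MEFs, lay on the minus strand of chromosome 15 (chr15:98772735-98774431) and crossed at least 1 exon junction in every listed transcript. The block on the 3' side was common to all 7 transcripts. It began at the same base, 98772934, in each of them, and measured 173 to 200 nt, with 173 nt shared by all. The blocks on the 5' side differed. In 4 transcripts (ENSMUST00000023732.11, ENSMUST00000166022.1, ENSMUST00000226610.1 and ENSMUST00000228594.1) the upstream block measured 24 to 37 nt and ended at 98774124, across an interval of 1189 nt. In ENSMUST00000226846.1 and ENSMUST00000228546.1 it ended at 98774412 instead, across an interval of 1477 nt, and measured 20 nt and 10 nt. ENSMUST00000226655.1 had 3 blocks, of 23, 61 and 184 nt from 5' to 3', separated by intervals of 196 nt and 1189 nt.

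**Figure D2:**
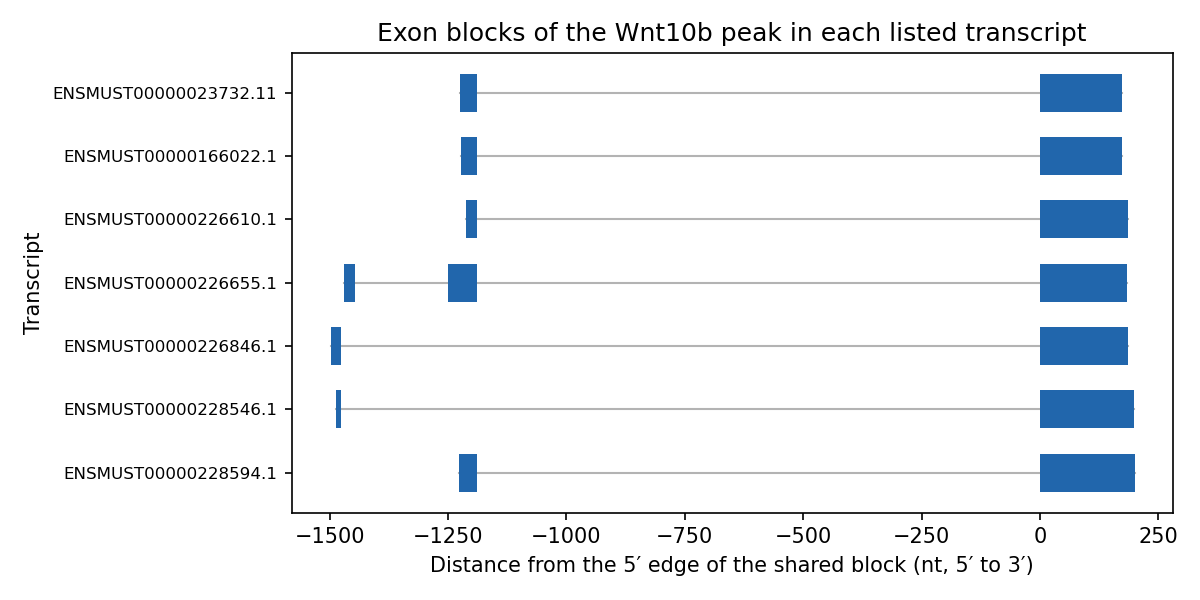
Exon blocks (blue bars) of the Wnt10b peak in each of its 7 listed transcripts, in nt from the 5' edge of the shared block and running 5' to 3'. All transcripts share the block to the right of 0, of 173 to 200 nt, while the upstream block ends 1189 nt away in 5 transcripts and 1477 nt away in 2.

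The transcripts of Wnt10b ran from 1204 to 2709 nt in length, and the peak covered 7.72% of the longest and 17.2% of the shortest. Its exonic length was 207 to 268 nt. The label was coding sequence in 6 transcripts and coding sequence with 3' UTR in ENSMUST00000226655.1, although the shared block held most of the peak in each of them. The place given to this site thus depended on the transcript model. The site stopped 2023 to 2050 nt short of the 3' limit of Wnt10b (98770712 to 98778206) and began 3719 nt downstream of the start site in RefSeq at 98778150.

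By their labels, 7 of the 15 listed peaks (46.7%) touched the 3' UTR, against 641 of all 1043 (61.5%). Among the 8 peaks listed as higher the number was 6 (75.0%), beside 69.9% of all 840 higher peaks, and among the 7 of Wnt10b it was 1 (14.3%), beside 26.6% of all 203 lower peaks. A label of coding sequence alone was given to 2 of the 8 higher peaks and 25.8% of all higher peaks, and to 6 of the 7 Wnt10b peaks (85.7%) and 44.8% of all lower peaks. None of the 15 touched the 5' UTR, as did 94 of all 1043 (9.01%). The Ptch1 peak, 299 nt from a start site, was labelled as coding. The shares of the 15 listed peaks rest on only 6 sites, were not tested against the others and show nothing particular to these genes.

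**Figure D3:**
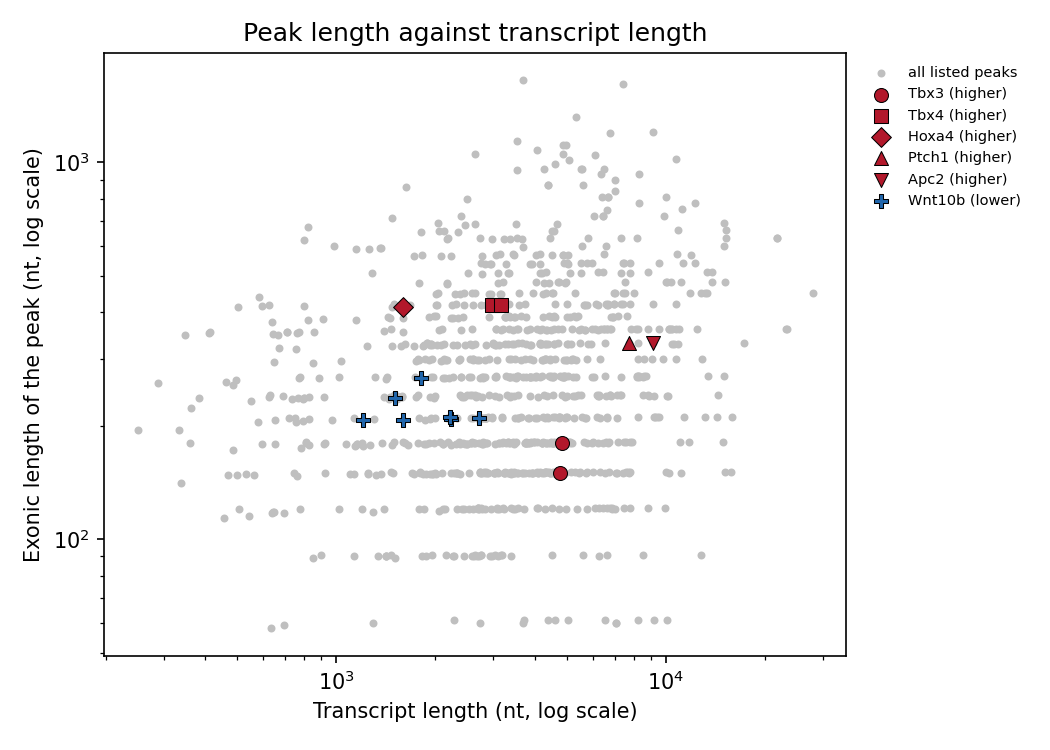
Exonic length of each peak (nt) against the length of its transcript (nt), both on log scales, for all 1043 listed peaks (grey) and for the 15 of the 6 genes (red, listed as higher in P9; blue, listed as lower in P9). The 15 peaks lie between 150 and 419 nt, within the range of 58 to 1649 nt of all listed peaks.

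The exonic length of the 15 listed peaks had a median of 237 nt and ran from 150 nt in Tbx3 to 419 nt in Tbx4. Over all listed peaks the median was 269 nt (interquartile range 180 to 388 nt). The lower value for the 15 rests on the 7 listed peaks of the Wnt10b site. On merged sites the order turned, with a median of 331 nt for the 6 sites, beside 269 nt for all 657 sites. The higher peaks of the 5 genes had a median of 372 nt, beside 269 nt for all higher peaks. This median counts the Tbx4 site 3 times (417 to 419 nt) and the Tbx3 site 2 times (150 to 180 nt). The Wnt10b peaks had a median of 209 nt, beside 238 nt for all lower peaks. A peak of several exon blocks was found in 8 of the 15 (Ptch1 and each Wnt10b transcript), or 53.3%, and in 26.7% of all listed peaks. In the lower table, where the Wnt10b peaks stand, 53.2% of all peaks had several blocks, and among all higher peaks the share was 20.2%.

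Other genes of the same families and pathways were looked up in both tables. Of 17 T-box genes, Tbx3 and Tbx4 alone were listed, and of 39 Hox genes Hoxa4 alone. Of 20 genes of Hedgehog signalling, which included the ligands, Smo and the Gli factors, only Ptch1 was listed. Of 19 Wnt ligands only Wnt10b was listed. Of 18 Wnt receptors and co-receptors 1 was listed, Ror2, a tyrosine kinase receptor for Wnt5a, with a coding peak of 180 to 181 nt lower in P9 MEFs on chromosome 13 (chr13:53111341-53111534, 2 transcripts). Of 21 genes that control beta-catenin or act with it, Apc2 and Tcf7l1 were listed, both as higher. Tcf7l1, a repressor of Wnt target genes, had a 3' UTR peak of 240 nt on chromosome 6 (chr6:72626378-72626617). None of 22 secreted or membrane modulators of Wnt signalling had a listed peak. Of 29 genes in a list of limb patterning, which held Tbx4 but none of the other 5 genes, Tbx4 and the bone morphogenetic protein gene Bmp2 were listed, both as higher. The Bmp2 peak lay in the 3' UTR and covered 150 nt on chromosome 2 (chr2:133562437-133562586).

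Over these lists, 9 of 181 genes had a listed peak, and the 6 genes described here were among the 9. Because the 6 genes were taken from the listed peaks, this number is not a test of any pathway. The share of all genes that had a listed peak is not given here. The counts of these lists therefore do not show whether their genes were listed more or less often than others. A gene without a listed peak may have had no m6A peak, an unchanged one or too few reads, and these cannot be told apart from the tables. None of 26 marker genes of fibroblasts, epithelium, endothelium, macrophages, neural cells and muscle had a listed peak, and this says nothing of their levels.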

How the data were processed

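MeRIP and input libraries of P9 and P3 MEFs, with 3 of each per passage, were grouped by their titles. The authors deposited 2 tables of peaks that differed between Treatment and Control, with coordinates on mm10, a transcript, its length, exon blocks and place labels. Aligner, peak caller and thresholds were not given in the sources used here. Both the fold changes and p-values in the deposited tables are the authors' own comparison and were not used. Starts were counted from 0, as 20 starts, against 4 otherwise, then met a RefSeq gene edge, and were raised by 1. Listed peaks of 1 gene, table and strand whose blocks overlapped or touched were merged into sites. Gene spans and start sites came from RefSeq (GRCm38.p6), where symbol and chromosome matched for 1015 of 1043 listed peaks. All values are descriptions and no test was run, since a test over peaks already selected would be circular. The genes and lists were chosen with earlier results of these data known. The genes named were the 6 above and listed genes of the lists, up to 5 a list. The merging was tested on simulated single-block peaks at well-separated sites. These did not include spliced peaks such as those of Wnt10b and Ptch1. Sequences of the peaks were not used here. Python 3.11.15, pandas 2.3.3, numpy 2.4.6, scipy 1.17.1 and matplotlib 3.10.9 were used.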

Additional observations from a re-analysis of the deposited data

How the results depend on the processing

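The number of listed peaks of the 6 genes was 15, and it was 6 when overlapping peaks were merged into sites and 6 when genes were counted, because a peak is listed once for each transcript. The share that touched the 3' UTR was 46.7% of listed peaks (95% Clopper-Pearson interval 21.3% to 73.4%). This interval takes listed peaks of 1 site as independent and is therefore too narrow. It also treats the 6 genes as a sample of genes, although they were chosen with results known, so nothing can be inferred from it. The share was 66.7% of merged sites, where a site counted if any of its listed peaks touched the 3' UTR. The Wnt10b site counted in this way through 1 of its 7 transcripts. The same share over all 657 sites is not given here, so the 66.7% has no value to stand beside. On listed peaks the share was 33.3% when a peak with coding sequence was placed there first, and 46.7% when the 3' UTR came first. The median exonic length of 237 nt became 331 nt on merged sites and also with the longest or the shortest listed peak of each site, where the Wnt10b site counts once in place of 7 times. The 9 pathway genes held 9 sites, a count chosen after seeing the data. No replicate could be left out. No paired analysis was possible because the deposited tables hold no values per library. Depth could not be weighed for the same reason.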
